A study of Mus musculus with 10 samples.

Results

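The acyl-CoA and acetyl-CoA synthetases described here are the 9 genes Acsl1, Acsl3, Acsl4, Acsl5, Acsl6, Acss1, Acss2, Acsf2 and Acsf3. They were chosen by name for the enzymes they encode, and all 9 were found among the 46983 genes of the deposited count table. 8 of them had enough reads to be among the 15949 genes tested for an effect of diet, and Acsl6, with 0 to 10 reads per mouse, did not. Messenger RNA of CD31+ heart cells was sequenced from 10 male wild type C57BL/6J mice, as 1 library each. Mice aged 8 weeks were assigned at random to a diet and ate freely for 14 days. The 5 control mice received a diet with 11.6% of its energy from fat, and the 5 ketogenic mice a diet with 89.5% from fat. No mouse carried an engineered allele or received another agent. Cells were captured with CD31 antibodies on magnetic beads, so any cell with CD31 on its surface could be held back, platelets and some leukocytes included.

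Fatty acids are inert until they are joined to coenzyme A. The Acsl enzymes activate long-chain fatty acids at the endoplasmic reticulum, the outer mitochondrial membrane and lipid droplets, and the acyl-CoA made there is oxidized, stored or built into membranes. The Acss enzymes make acetyl-CoA from acetate, Acss1 in mitochondria and Acss2 in the cytosol and nucleus. Acsf2 and Acsf3 are mitochondrial, and Acsf3 activates malonate rather than a long-chain fatty acid. Cardiac endothelium passes fatty acids from the blood to muscle and also uses some of them itself.

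None of the 8 tested synthetase genes was called changed by the ketogenic diet. A gene is called here at an adjusted p under 0.05 in edgeR's quasi-likelihood test, adjusted over all tested genes by the Benjamini-Hochberg method, and 1.34% of all tested genes were called. At an unadjusted p under 0.05, edgeR had 3 of the 8, Acsl3, Acsl4 and Acsf2, all higher on the ketogenic diet. Of all tested genes, 17.8% had an unadjusted p under 0.05 and 8.57% had one and were higher. DESeq2, the tool used by the authors, also called 0 of the members at an adjusted p under 0.05, where it called 5.61% of the genes it gave an adjusted p. In DESeq2, 5 of the 9 had an unadjusted p under 0.05, as did 9.75% of all 32361 genes with a p. The 5 were Acsl1, Acsl3, Acsl4, Acsl6 and Acsf2. Among the genes that edgeR also tested, which leave out Acsl6, 17.9% had an unadjusted p under 0.05 in DESeq2. The log2 fold change was above 0 for 5 of the 8 tested members and for 48.6% of all tested genes. The median log2 fold change was 0.12 for the 8 and −0.01 for all tested genes. In no member did every ketogenic mouse lie above every control mouse, as it did for 2.4% of all tested genes.

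The synthetases spanned a wide range of levels. On the deposited RPKM scale, that is reads scaled to gene length and to all counted reads of the mouse, Acsl5 was the most abundant, at 72.7 to 84.4 RPKM over the 10 mice. Acsl4 followed at 20.6 to 24.0 RPKM and Acsf3 at 18.9 to 23.6 RPKM. The ranges of Acsl4 and Acsf3 overlapped, with Acsl4 higher in 6 of 10 mice. Acsl1 lay clear of its neighbours at 7.99 to 11.5 RPKM. Acss1 (2.24 to 4.24 RPKM), Acsl3 (1.20 to 2.36), Acsf2 (0.971 to 1.74) and Acss2 (0.630 to 1.46) formed the lower end, and each overlapped the next in that order. Acsl6 was at most 0.0445 RPKM. The order depends partly on the gene lengths behind the RPKM values. With the exon lengths of GENCODE M21 instead, Acsl4 lay above Acsf3 in 10 of 10 mice, while the ranges of Acsf3 (11.1 to 13.9) and Acsl1 (9.64 to 13.8) overlapped.

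**Figure D1:**
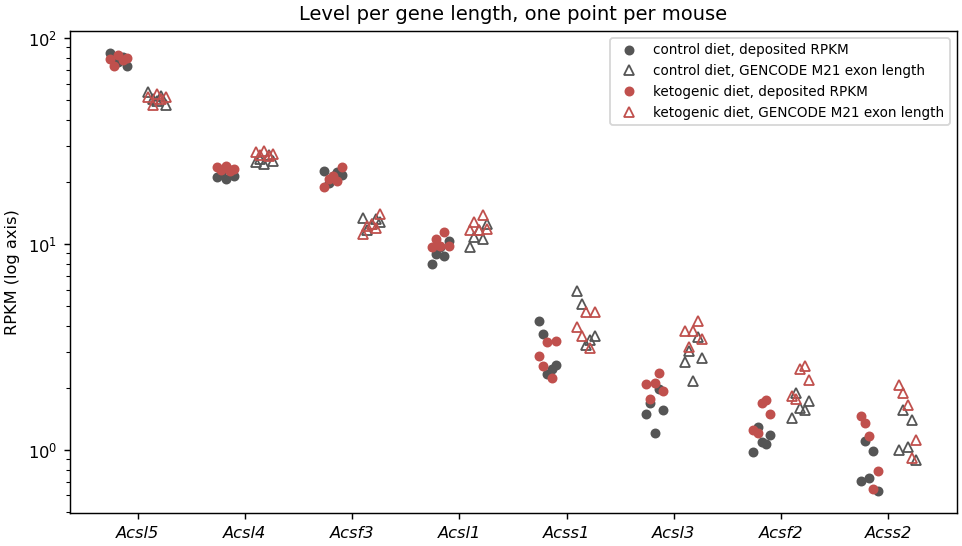
RPKM (vertical, log axis) of 8 synthetase genes (horizontal) in each of 10 mice, on the deposited scale (circles) and with GENCODE M21 exon lengths (triangles), control diet in gray and ketogenic diet in red. Acsl6, listed at 0 RPKM in some mice, cannot be drawn on a log axis. Acsl5 stands above all others on both scales, and the diets intermingle for most genes.

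Acsl5 alone held most of the long-chain family's summed RPKM. Its share was 70.8% ± 1.73 (SD, n = 5) on the control diet and 68.8% ± 1.01 (n = 5) on the ketogenic diet. Acsl4 made up 19.5% ± 0.777 and 20.4% ± 0.521 of the sum, and Acsl1 8.30% ± 1.11 and 8.98% ± 0.846. With GENCODE M21 lengths the share of Acsl5 was smaller, 56.3% ± 2.07 and 53.9% ± 1.17. With counts corrected for reads that share a start position (given with the values of Acsl5) it was larger, 75.3% ± 1.78 and 73.8% ± 1.45. Among the acetyl-CoA synthetases, the mitochondrial Acss1 held 78.1% ± 5.31 of the summed RPKM on the control diet and 73.0% ± 6.90 on the ketogenic diet. These shares are descriptions of the make-up of the family and were not tested.

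Acsl5, the long-chain synthetase of the endoplasmic reticulum and mitochondria, lies on chromosome 19 (55251938 to 55297720 on GRCm38). Its normalized counts, that is reads scaled by the TMM method to a common library size, were 3127, 2860, 2822, 2996 and 2675 in the control mice. In the ketogenic mice they were 2916, 2681, 3026, 2846 and 2928. The diets overlapped fully, and the means of 2896 ± 172 and 2879 ± 128 (SD, n = 5 each) gave a log2 fold change of −0.01 (SE 0.0460, adjusted p = 0.947). The 95% interval of that change was −0.11 to 0.09, or −7.24% to 6.58% of the control level. Acsl5 reads filled 40.7% to 51.0% of the possible start positions on both strands, and no gene in the table had more than 1.04 reads per start position and strand. Whether duplicate reads were removed is not given in the sources used here. A limit of this kind would lower the counts and the fold changes of abundant genes most, and their levels and folds may be understated. With counts corrected for shared start positions its log2 fold change was 0.01. Acsl5 overlaps Zdhhc6 on the opposite strand, and the library kit does not record the strand.

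Acsl4, which prefers arachidonic acid and other polyunsaturated fatty acids, lies on chromosome X (142317993 to 142390535). Its normalized counts were 1584, 1632, 1535, 1719 and 1599 on the control diet and 1764, 1701, 1780, 1675 and 1708 on the ketogenic diet. All ketogenic mice were above the control median, 4 of 5 control mice were below every ketogenic mouse, and control mouse 4 reached into the ketogenic range. The means were 1614 ± 68.4 and 1726 ± 44.4, a log2 fold change of 0.10 (SE 0.0383, 95% interval 0.01 to 0.18, adjusted p = 0.213). This was the most evenly expressed member, with a coefficient of variation between mice of 4.24% on the control diet and 2.57% on the ketogenic diet.

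Acsl3 is the synthetase of the endoplasmic reticulum and of forming lipid droplets, and lies on chromosome 1 (78657825 to 78707743). It had normalized counts of 137, 153, 110, 182 and 142 on the control diet and 190, 159, 191, 214 and 175 on the ketogenic diet. All ketogenic mice were again above the control median, and 3 of them were above every control mouse. The means of 145 ± 26.2 and 186 ± 20.5 gave a log2 fold change of 0.36 (SE 0.133, 95% interval 0.07 to 0.65, adjusted p = 0.186). That adjusted p was the lowest among the members. At this depth, the 38 called genes with a mean of 100 to 250 reads had log2 fold changes of at least 0.39 in size. Acsl3 overlaps Utp14b on the same strand, where 37 to 78 reads per mouse were counted.

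Acsl1, the main long-chain synthetase of heart muscle and fat tissue, is tied there to fatty acid oxidation and lies on chromosome 8 (46471037 to 46536051). Its normalized counts were 1188, 1319, 1434, 1308 and 1532 in the control mice and 1423, 1557, 1429, 1681 and 1432 in the ketogenic mice. Control mice 3 and 5 lay within the ketogenic range, and 2 ketogenic mice lay above every control mouse. The means of 1356 ± 131 and 1505 ± 113 gave a log2 fold change of 0.15 (SE 0.0707, 95% interval −0.00 to 0.30, adjusted p = 0.294). Because heart muscle is rich in Acsl1, its value is given beside the cardiomyocyte markers. Their summed normalized counts ranged from 6035 to 7505 in control mice and from 6838 to 9447 in ketogenic mice. When the fit included a per-mouse score of these markers, the log2 fold change of Acsl1 was 0.07 (adjusted p = 0.786, the highest of the alternatives, which ranged from 0.184). The score partly goes with diet, so this fit cannot fully separate the score from diet.

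Acsl6, a synthetase known best from brain, where it serves docosahexaenoic acid, lies on chromosome 11 (54303798 to 54364756) and was close to undetected. The control mice had 0, 0, 1, 0 and 0 reads and the ketogenic mice 0, 7, 10, 2 and 1 reads. In total 1 read stood against 20, a ratio per counted read of 19.3 with a 95% interval from 3.08 to 798 that covers counting error only. Over mice, the two-sided exact permutation test of this difference gave p = 0.0873. Ketogenic mice 2 and 3 held most of the reads, and ketogenic mouse 1 had none. The gene was not tested by edgeR, and DESeq2 gave an unadjusted p of 0.0127 and no adjusted p.

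Acss2 makes acetyl-CoA from acetate in the cytosol and nucleus, is known as a target of the sterol-responsive SREBP factors, and lies on chromosome 2 (155517948 to 155585724). It had normalized counts of 119, 185, 122, 166 and 106 on the control diet. On the ketogenic diet the counts were 244, 224, 194, 107 and 131. Ketogenic mice 1 to 3 were above every control mouse, while mice 4 and 5 lay within the control range. The means of 140 ± 34.2 and 180 ± 59.0 gave a log2 fold change of 0.36 (SE 0.235, 95% interval −0.15 to 0.87, adjusted p = 0.443). Acss2 had a log2 fold change of the same size as Acsl3 but the widest interval of the 8. It overlaps Ggt7 and Gss on the opposite strand, and 540 to 737 reads per mouse were counted on Gss, so reads of Acss2 and its neighbours may not be fully separated.

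Acss1, the mitochondrial acetyl-CoA synthetase on chromosome 2 (150618105 to 150668500), had normalized counts of 285, 244, 155, 166 and 172 on the control diet. They were 189, 170, 223, 149 and 224 on the ketogenic diet. The means of 205 ± 57.0 and 191 ± 32.9 gave a log2 fold change of −0.10 (SE 0.183, 95% interval −0.50 to 0.30, adjusted p = 0.821). Control mouse 1 was the highest of the 10, and without it the log2 fold change was 0.05. That mouse also had the highest summed count of macrophage markers, 7099 against 1829 to 3491 in the other mice, and the part of these cells in the value was not tested.

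The 2 remaining mitochondrial enzymes differed from each other in level. Acsf3, the malonyl-CoA synthetase on chromosome 8 (122775486 to 122817880), had normalized counts of 589, 507, 548, 582 and 557 on the control diet and 486, 532, 546, 516 and 604 on the ketogenic diet. Its means were 557 ± 32.4 and 537 ± 43.6, a log2 fold change of −0.05 (SE 0.0697, 95% interval −0.20 to 0.10, adjusted p = 0.742). Acsf2, a medium-chain acyl-CoA synthetase on chromosome 11 (94557102 to 94601871), had 57.2, 75.3, 64.2, 63.2 and 69.4 on the control diet and 73.0, 70.0, 98.2, 101 and 86.6 on the ketogenic diet. Ketogenic mice 3, 4 and 5 were above every control mouse, and all 5 were above the control median. The means of 65.9 ± 6.83 and 85.8 ± 14.1 gave a log2 fold change of 0.38 (SE 0.143, 95% interval 0.07 to 0.69, adjusted p = 0.192). Acsf2 had the highest log2 fold change of the 8 and the fewest reads, 53 to 104 per mouse. It overlaps Chad on the opposite strand, where 1 to 91 reads per mouse were counted.

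**Figure D2:**
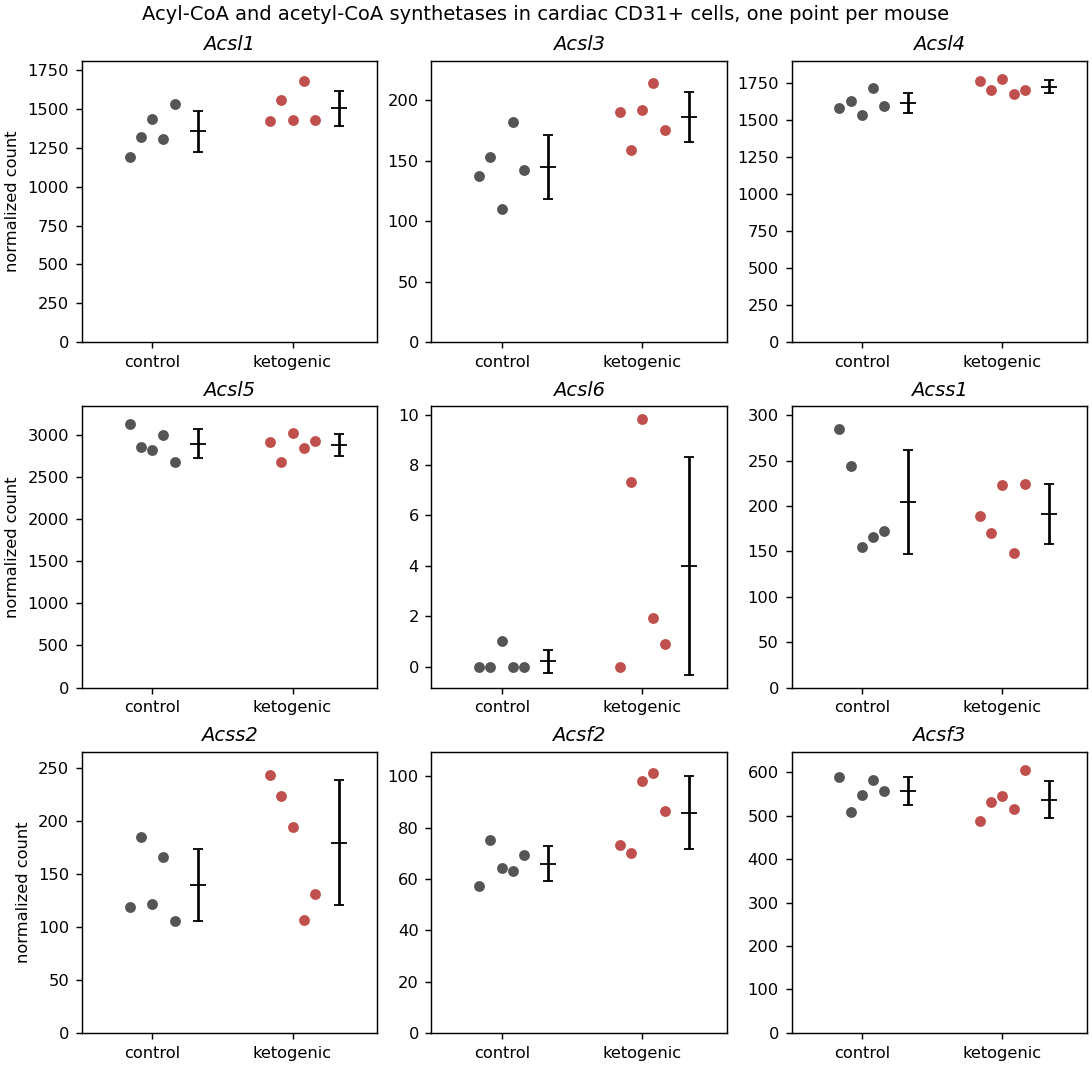
Normalized count (vertical, TMM-scaled reads) of each of the 9 synthetase genes in the 5 control mice (gray) and 5 ketogenic mice (red), with the mean and SD beside each group. The diets overlap in every panel, Acsl3, Acsl4 and Acsf2 sit higher in most ketogenic mice, and Acsl6 stays at 10 reads or fewer.

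**Figure D3:**
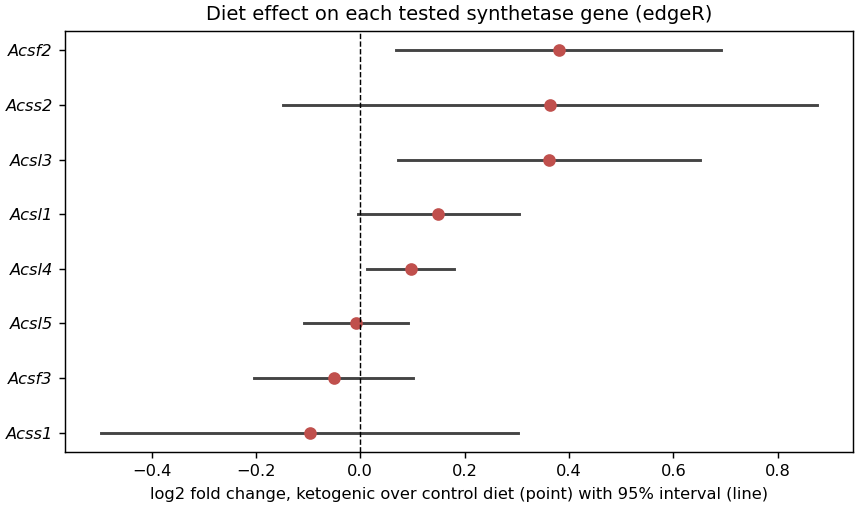
Log2 fold change (horizontal, ketogenic over control diet) of the 8 tested synthetase genes, with 95% intervals from edgeR as lines and 0 as a dashed line. The intervals of Acsf2, Acsl3 and Acsl4 lie above 0 before adjustment, and those of Acss2 and Acss1 are the widest.

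The balance between related enzymes was compared within each mouse, as the log2 ratio of their RPKM values with 0.1 added. The ratio of Acsl3 to its close relative Acsl4 averaged −3.70 ± 0.190 on the control diet and −3.45 ± 0.156 on the ketogenic diet (SD, n = 5 each). The difference of 0.26 had p = 0.0397 in a two-sided exact permutation test and p = 0.119 after adjustment over the 3 ratios. The ratio of cytosolic Acss2 to mitochondrial Acss1 averaged −1.75 ± 0.444 and −1.38 ± 0.471, a difference of 0.37 (exact permutation p = 0.238, adjusted p = 0.238). Its values were −2.43, −1.64, −1.55, −1.24 and −1.87 in control mice and −0.92, −0.89, −1.45, −1.66 and −1.97 in ketogenic mice, so only ketogenic mice 1 and 2 left the control range. The ratio of Acsl1 to Acsl5 averaged −3.09 ± 0.222 and −2.93 ± 0.153, a difference of 0.16 (exact permutation p = 0.230, adjusted p = 0.238). No ratio had an adjusted p under 0.05 in this permutation test. The smallest p that 5 against 5 mice allow in this test is 0.00794.

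Summed over the 9 genes, normalized counts were 6790 to 7183 in control mice and 7101 to 7498 in ketogenic mice. The 2 ranges overlapped, and the means differed by 4.52%. In bulk RNA of this kind, fewer cells of a type and less RNA per cell cannot be told apart.

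Other acyl-CoA synthetases were read beside the 9. Of 16 further genes of this kind (the Slc27a, Acsbg and Acsm families, Acss3, Aacs and Aasdh), 6 had enough reads to be tested and 0 were called by edgeR or DESeq2. At an unadjusted p under 0.05 in edgeR, Slc27a4, a fatty acid transport protein with synthetase activity, had a log2 fold change of 0.28 and Aasdh, a member of the same enzyme superfamily, −0.19. The Acsm genes, medium-chain synthetases known from liver and kidney, had at most 4 reads in any mouse.

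Lists of genes related to the steps before and after the synthetases contained called genes, all of them higher on the ketogenic diet. Some listed genes are regulators or lipid droplet proteins rather than enzymes or carriers of these steps, among them Insig1 and Plin2. Of all tested genes, 0.809% were called higher. The lists were chosen with earlier results of these data known, so this share is not a neutral measure for them. Among 11 genes of fatty acid uptake and binding, 1 was called. It was Fabp3, the fatty acid binding protein of heart muscle, whose normalized counts averaged 104 ± 10.0 and 154 ± 8.19 (log2 fold change 0.57, SE 0.0994, adjusted p = 0.0204). The median log2 fold change of this list was 0.09. A small fold change carries little information for some of its abundant genes. Cd36 had 6902 to 7218 reads in every mouse, and Meox2 filled 58.0% to 68.2% of its possible start positions. Among 9 tested genes of acyl-CoA use in mitochondria, 2 were called, and the median was 0.12. Slc25a20, which carries acylcarnitines into mitochondria, averaged 1046 ± 129 and 1414 ± 102 (0.43, SE 0.0827, adjusted p = 0.0299). Acadl, the long-chain acyl-CoA dehydrogenase, averaged 707 ± 87.7 and 1015 ± 141 (0.52, SE 0.107, adjusted p = 0.0393).

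Among 13 genes of acyl-CoA use in glycerolipids, 2 were called, with a median of 0.11. Plin2, the lipid droplet coat protein, averaged 2303 ± 56.9 and 2897 ± 98.5 (0.33, SE 0.0332, adjusted p = 0.00120). Lpcat3, which adds polyunsaturated acyl chains to lysophospholipids, averaged 1243 ± 27.4 and 1467 ± 40.1 (0.24, SE 0.0357, adjusted p = 0.00885). Among 13 genes of acetyl-CoA supply and use, 2 were called, with a median of 0.19. All 13 had a log2 fold change above 0, as did 48.6% of all tested genes, and those of Acat1 (0.0043) and Acly (0.0053) were close to 0. Hmgcs1, the cytosolic HMG-CoA synthase of sterol synthesis, averaged 1661 ± 100.3 and 2233 ± 209 (0.43, SE 0.0645, adjusted p = 0.00956). Insig1, the sterol-sensing partner of SREBP processing, averaged 395 ± 36.6 and 517 ± 42.3 (0.39, SE 0.0832, adjusted p = 0.0442). Both called genes belong to sterol synthesis and its control, while Acly, the citrate-cleaving source of cytosolic acetyl-CoA, had a log2 fold change of 0.0053 (adjusted p = 0.948).

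Several of these calls were lost when 1 mouse was left out, while the fold changes stayed of similar size. Over the fits that left out each mouse in turn, Fabp3 was no longer called without control mouse 3 (adjusted p = 0.0533) or ketogenic mouse 4 (0.0536). Slc25a20 was not called without control mouse 3 or 4 or ketogenic mouse 3, 4 or 5, with adjusted p from 0.0612 to 0.0714. Acadl was called only when ketogenic mouse 2 or 4 was the one left out, and Insig1 only when ketogenic mouse 4 was, with adjusted p otherwise from 0.0515 to 0.0968 for both. In these fits the log2 fold change was 0.52 to 0.60 for Fabp3, 0.37 to 0.49 for Slc25a20, 0.46 to 0.58 for Acadl and 0.35 to 0.44 for Insig1. Plin2, Lpcat3 and Hmgcs1 were called in all 10 of these fits. With the per-mouse cardiomyocyte score in the fit, the adjusted p was 0.161 for Fabp3 (range over the alternatives 0.000618 to 0.161), 0.191 for Slc25a20 (7.49e-05 to 0.191) and 0.109 for Acadl (0.000162 to 0.109). Their log2 fold changes were then 0.48, 0.39 and 0.59. In that fit Plin2 (adjusted p = 0.0186) and Hmgcs1 (0.00148) were called, and Lpcat3 (0.103) and Insig1 (0.130) were not. The log2 fold changes in it were 0.32 for Plin2, 0.57 for Hmgcs1, 0.20 for Lpcat3 and 0.44 for Insig1. The score ran from −1.29 to 0.26 in control mice and from −0.60 to 1.35 in ketogenic mice. Score and diet thus partly go together, and standard errors can widen for that reason alone (Fabp3 0.128 against 0.0994). A call lost in this fit therefore does not separate the score from diet.

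**Figure D4:**
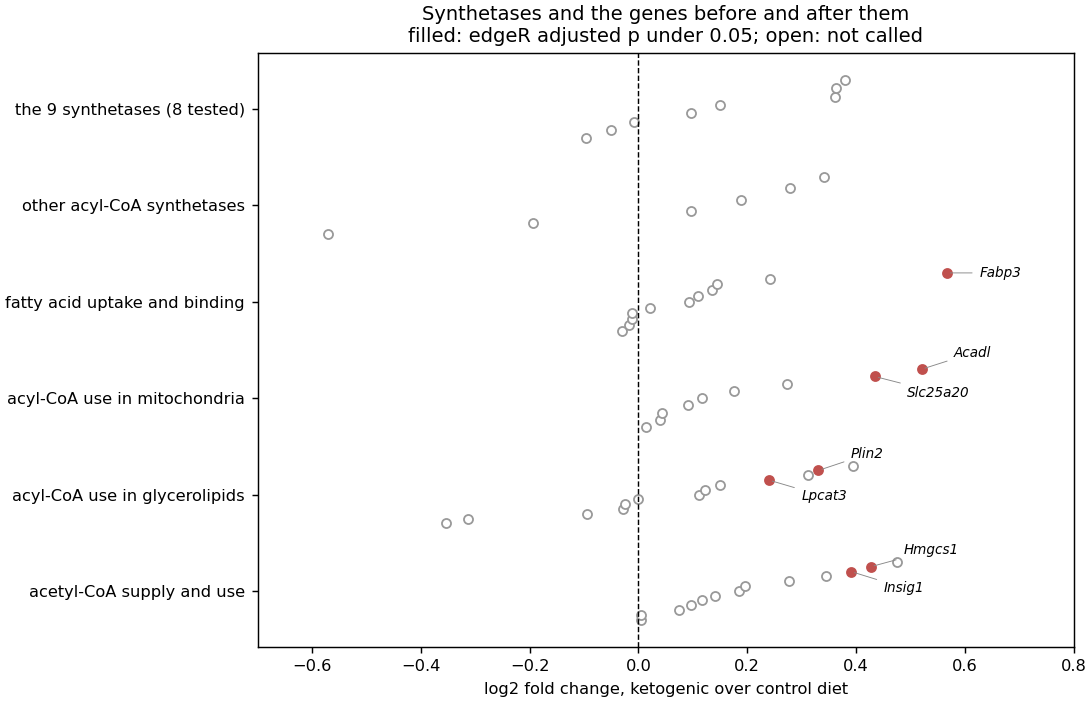
Log2 fold change (horizontal, ketogenic over control diet) of each tested gene in 6 lists (rows), with called genes filled and named and others open. The 8 tested synthetases have no called gene, and the 7 called genes of the other lists all lie to the right of 0. The lists were chosen with earlier results of these data known.

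Markers of other cell types were read from the same libraries, which held 10885154 to 12710861 counted reads each. The endothelial markers Pecam1 (log2 fold change −0.09) and Cdh5 (−0.04) were abundant on both diets, and 0 of 8 endothelial markers were called by edgeR or DESeq2. Kdr, a receptor for VEGF, had an unadjusted p under 0.05 in edgeR and a log2 fold change of 0.13, and 2 of the 8 were above 0. Cdh5 reads amounted to at least 92.3% of the possible start positions and Pecam1 had 6770 to 7020 reads in every mouse, so a small fold change carries little information for them. Of 9 tested cardiomyocyte markers, 0 were called by edgeR, 6 had an unadjusted p under 0.05 and were higher on the ketogenic diet, and DESeq2 called 4. Of 5 platelet markers, 0 were called by edgeR and 4 had an unadjusted p under 0.05 and were lower, as were 9.26% of all tested genes, and DESeq2 called 2. Of 6 macrophage markers, 0 were called by edgeR or DESeq2 and 4 had an unadjusted p under 0.05 and were lower. Of 7 lymphocyte markers edgeR called Cd79a, a B cell receptor subunit, lower (−0.46, adjusted p = 0.0221). In edgeR 2 of the 7 had an unadjusted p under 0.05 and were lower, while 4 had a log2 fold change above 0 (median 0.08). Summed platelet markers ranged from 4699 to 7635 normalized counts in control mice and from 2184 to 5603 in ketogenic mice. No fibroblast, mural cell or erythroid marker was called by edgeR or DESeq2, and none had an unadjusted p under 0.05. Several of these genes could show little change: 4 of 6 mural markers filled over 50% of their start positions in every mouse, with Rgs5 at 80.3% to 82.8%, and the near-identical Hba-a1 and Hba-a2 had 97 to 98 and 98 to 101 reads in all mice. The adipocyte markers Adipoq, Plin1, Cidec, Cfd and Lep had at most 9 reads each in any mouse. Apart from the values with the cardiomyocyte score, the part of these cells in the values of the synthetases was not tested.

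Promoter sequence was compared because Acss2 and Acsl1 are known targets of factors that act on sterol and fatty acid genes, and Hmgcs1 is a called gene of the sterol group. All 9 members matched the RefSeq promoter table (GRCm38.p6), with 12 windows of 250 bases before to 50 bases after a transcript start. Both strands were searched for the NF-Y box CCAAT, the sterol element TCACNCCAC, the nuclear receptor hexamer AGGTCA, and a pair of such hexamers 1 base apart. The NF-Y box was present in 7 of the 12 member windows and in 37.4% of all 32817 windows. The sterol element was present in 1 of 12, of Acsl1, and in 1.24% of all windows, and the hexamer in 1 of 12, of Acsl6, and in 16.3%. The pair of hexamers was present in 0 of 12 and in 0.0396% of windows. The stretches from 180 to 31 bases before the start are shown for the second start of Acsl1 (chr8:46490786-46490935), for Acss2 (chr2:155517863-155518012) and for Hmgcs1 (chr13:119690171-119690320), all on the plus strand, with matches to the NF-Y box or sterol element in capitals.
Acsl1, second start: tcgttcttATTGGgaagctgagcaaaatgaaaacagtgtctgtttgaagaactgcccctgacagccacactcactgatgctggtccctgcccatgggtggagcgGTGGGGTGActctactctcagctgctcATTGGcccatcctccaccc
Acss2: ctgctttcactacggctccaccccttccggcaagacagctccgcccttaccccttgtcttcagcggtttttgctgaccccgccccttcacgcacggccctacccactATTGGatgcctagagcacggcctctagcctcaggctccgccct
Hmgcs1: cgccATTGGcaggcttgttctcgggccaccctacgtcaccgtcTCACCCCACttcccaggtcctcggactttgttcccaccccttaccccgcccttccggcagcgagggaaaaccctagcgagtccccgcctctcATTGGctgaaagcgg
In Acsl1 and Hmgcs1 a sterol element match lies in the same stretch as an NF-Y box, on the minus strand in Acsl1 and on the plus strand in Hmgcs1. The window of the first start of Acsl1 held no match to any of these motifs. Counts per gene do not show which start of Acsl1 is used in these cells, and this was not tested. Windows of the other called genes Insig1, Plin2, Lpcat3, Slc25a20, Acadl and Fabp3 were also searched. None held a sterol element match, and those of Insig1, Plin2 and Lpcat3 held an NF-Y box. The Acss2 stretch holds an NF-Y box alone, which says only that the other letters are not in this window. A match describes the letters and is no evidence of binding in these cells.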

How the data were processed

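The authors isolated CD31+ cardiac cells, made SMART-Seq v4 libraries and sequenced them as single reads. The submitters' processing notes list bcl2fastq 2.17.1.14, STAR 2.3, HTSeq 0.6.0 and the build mm10. The annotation release, the strand setting and any removal of duplicate reads are not given in the sources used here. The authors deposited counts, whole numbers of reads per gene and mouse without normalization, and RPKM values, in which the authors scaled those counts to gene length and total counted reads. Each column of both tables matched 1 sample title, which also gave the diet and replicate number. Between 10885154 and 12710861 reads were counted per mouse, so genes with few reads show only large changes.

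Counts were normalized by TMM, filtered with filterByExpr and compared by the quasi-likelihood F-test of edgeR 4.0.16 in R 4.3.3, with Benjamini-Hochberg adjustment over all 15949 tested genes. Each standard error was derived from F as the size of the log2 fold change over √F. A prior count of 2 was used for log2 CPM. RPKM ratios were compared by two-sided exact permutation over all 252 regroupings of the mice. Gene symbols and positions came from GENCODE M21 on GRCm38, in which 46488 of 46983 identifiers were found, 37902 with the same version. The edgeR, DESeq2 and limma tests were checked on simulated data whose changes were larger than any log2 fold change of the tested members. That check does not cover changes of the members' size.

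Alternatives changed the scaling (DESeq2 size factors, upper quartile factors or library size alone), the filter (none, or 10 counts or more in all mice), the tool (DESeq2 1.42.0, or limma 3.58.1 on RPKM in log2 with a pseudocount of 1 or 0.1), or the model (a replicate block, or a per-mouse mean z-score of cardiomyocyte markers), or left out a mouse. For the ratios they were a pseudocount of 1, TMM-normalized counts, the block and each mouse left out. A correction for reads that share a start position and the unadjusted share under DESeq2 among genes tested by edgeR were additions made once the data were known. The members and gene lists were chosen with earlier results of these data known. Of other lists, genes with an adjusted p under 0.05 were named, plus Pecam1 and Cdh5 as identity checks. Acly, Acat1, Cd36, Meox2, Slc27a4, Aasdh, Kdr, Rgs5, Hba-a1, Hba-a2 and the adipocyte markers were named after their values had been seen. For each member, the 2 genes with the highest correlation over mice were also listed. A gene of these lists is not reported here. Protein sequences were not used here.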

Additional observations from a re-analysis of the deposited data

Results flagged for a closer look

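Among the 24 groups of 5 mice examined for a mouse far from the others, 1 stood apart, and about 1.2 would by chance, since the criterion marks about 1 in 20 groups. It was control mouse 3 for Acsl6, with a normalized count of 1.04 where the other 4 control mice had 0. The value is a single read.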

How the results depend on the processing

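In each of the 21 alternatives, 0 members were called. Acsl1, Acsl3, Acsl4, Acss2 and Acsf2 kept a log2 fold change above 0 and Acsf3 one below 0 in all 21. Acsl1 moved by over 1.5 times with the cardiomyocyte score (0.07 against 0.15). So did Acss2 (0.17 with limma at pseudocount 1, 0.58 with the score and 0.23 without ketogenic mouse 1, against 0.36) and Acsf2 (0.22 with limma at pseudocount 1, against 0.38). Acsf3, at −0.05 in the main fit, moved by over 1.5 times to −0.10 with the score. Further such moves of Acsf3 came without control mouse 1 (−0.03), 2 (−0.08) or 4 (−0.03) and without ketogenic mouse 1 (−0.01) or 5 (−0.09). Acsl5, at −0.01, changed sign in 9 of 21: it was 0.0043 with library size alone, 0.00058 with DESeq2, 0.0046 and 0.0047 with limma (pseudocount 1 and 0.1), 0.0055 with the cardiomyocyte score, 0.011 with counts corrected for start positions, and −0.035 to 0.021 over the fits leaving out 1 mouse. Acss1 changed sign with the cardiomyocyte score (0.16), was −0.05 and −0.06 with limma, and ranged from −0.18 to 0.051 over the fits leaving out 1 mouse. All 3 ratios stayed uncalled in all 13 alternatives. The difference fell to 0.22 with pseudocount 1 and 0.20 without control mouse 1 for Acss2 to Acss1, to 0.14 with pseudocount 1 for Acsl3 to Acsl4, and to 0.08 without control mouse 1 for Acsl1 to Acsl5. The count of genes called over the whole table moved from 213 to 819 with DESeq2 and 43 with the cardiomyocyte score, and ranged from 86 to 492 over the fits leaving out 1 mouse, the highest without ketogenic mouse 2. The cause was not tested. Same-numbered mice did not deviate together (correlations of their deviations −0.20 to 0.10, own number highest for 0 of 5), so the numbers were not read as pairs. With the replicate block 113 genes and 0 members were called, and Fabp3, Slc25a20, Acadl, Lpcat3, Insig1 and Cd79a were not called, at log2 fold changes of 0.57, 0.44, 0.52, 0.24, 0.39 and −0.45. Insig1 was also not called with upper quartile factors, and Cd79a not in 5 of the 10 fits leaving out 1 mouse. Over 5 pairs the ratio test cannot reach the threshold.

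Acsf2, Acsl3, Acss2 and Acss1 had at most 264 reads per mouse and wider intervals than the other tested members. Among them the width did not follow the reads, as Acsf2 had the fewest reads but a narrower interval than Acss1 and Acss2. Acsl6 is limited by counting.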

Other observations

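For each tested member, the protein-coding genes with the closest pattern over the 10 mice, after subtracting each diet's mean, were listed from 13228 candidates with a mean of at least 50 counts. The closest were Fbxl20 for Acsl1 (Pearson r = 0.97), Hivep1 for Acsl3 (0.94), Igfbp6 for Acsl4 (0.98), Brms1l for Acsl5 (0.94), Ess2 for Acss1 (0.93), Maf1 for Acss2 (0.98), Bphl for Acsf2 (0.92) and Pgm3 for Acsf3 (0.93). Each is the highest of many correlations over 10 mice, and the points share libraries and depth, so the values are descriptions only.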
